A study of Mus musculus with 12 samples.

Results

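Interleukin 21 reporter-positive T follicular helper (Tfh) cells of mouse Peyer's patches were set against CD4+ T cells of the same tissue that were labelled positive for the chemokine receptor CXCR5 and negative for the inhibitory receptor PD-1. The members were chosen by sample title: 3 arrays titled GFP+CXCR5+PD1+ and 3 titled GFP-CXCR5+PD1-, 6 of the 12 arrays of the series. The other 6 arrays, 3 of GFP- Tfh cells (CXCR5+PD1+) and 3 of CXCR5-PD1- cells, entered the same statistical model. All mice were IL-21eGFP reporter animals, in which enhanced green fluorescent protein (GFP) marks cells that read the Il21 gene, so every group carried the reporter. The sources state no strain, age or treatment of the mice. Cells came from a CD4+ gate negative for Epcam and for class II.

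Tfh cells are the CD4+ T cells that enter B cell follicles and germinal centres and help B cells there. The repressor BCL6 directs their program, CXCR5 brings them into the follicle, and the cytokines IL-21 and IL-4 act on the B cells. Naive and recirculating T cells instead carry CCR7, S1PR1 and the IL-7 receptor, which serve entry into lymphoid tissue, exit from it and survival. Peyer's patches are lymphoid tissue in the wall of the small intestine; gut microbes keep germinal centres, and with them Tfh cells, present there.

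The labels conflict in places. The titles and the sorting protocol call the GFP+ cells CXCR5+ and PD-1+, whereas their characteristics read negative for both; the titles were followed. The sorting protocol names no CXCR5+PD-1- gate, and the characteristics of all 12 arrays give the cell type as T follicular helper. Nothing in the labels ties the replicates to separate mice, so the p-values cover the spread among these arrays. Xist and Eif2s3y levels on the arrays read as female for replicate 3 and male for replicates 1 and 2 of every group. Replicate 3 thus came from other mice than replicates 1 and 2, and its spread from them includes sex. The spread between replicates 1 and 2 may be technical. The GFP+ arrays lay farther from their group mean (root mean square deviation 0.287 to 0.405 log2 units) than those of the other groups (0.163 to 0.204), and the model therefore gave each group its own weight.

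Differences are in log2 units of the deposited microarray intensities, GFP+ Tfh minus CXCR5+PD1-, with their standard errors (SE) and n = 3 arrays per group. A gene is called where limma's test gave a Benjamini-Hochberg adjusted p under 0.05 over the 11240 genes tested. In sorted bulk RNA, fewer cells of a type and less RNA per cell cannot be told apart.

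GFP+ Tfh cells had higher RNA for many genes of the B cell help program. RNA for many genes of naive and recirculating T cells was lower. Gene lists here and below were written with earlier results of these data known, and some hold the reporter's gene or genes of sorted receptors. Their counts describe the lists and test nothing. Of the genes tested, 331 (2.94%) were called. 160 (1.42%) were higher in GFP+ Tfh and 171 (1.52%) were lower, and in all 331 the 3 arrays of one group lay apart from the 3 of the other. Groups lay apart in 19.3% of all genes tested. Of the calls, 116 higher (1.03%) and 124 lower (1.1%) differed by at least 1 log2 unit. The median difference over all genes tested was -0.03. The count changed most when GFP+ replicate 2 was left out: 70 genes were called, all of them among the 331. Without any other array of the compared groups in turn, 246 to 331 were called. The GFP- Tfh and CXCR5-PD1- arrays were not left out for this comparison. Statements below on each array left out therefore cover the compared groups only. GFP+ replicate 2 lay nearest the GFP+ mean (root mean square deviation 0.2874), so leaving it out kept GFP+ replicates 1 and 3 (0.3415 and 0.4054). Differences of lost calls moved either way, from 2.72 to 2.05 for Il4 and from 1.04 to 1.21 for Slamf6. Why calls were lost was not tested. The balance of directions also moved: without GFP+ replicate 1, 87 were higher and 211 lower, and without GFP+ replicate 3, 187 were higher and 123 lower.

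The reporter's gene, the genes of both sorted receptors and Bcl6, a Tfh marker that was not sorted on, were read first as a check of the labels. Il21, the gene that the reporter reads, was at 10.82, 10.73 and 10.25 on the GFP+ arrays and at 7.63, 6.46 and 5.41 on the CXCR5+PD1- arrays. All GFP+ arrays were above all CXCR5+PD1- arrays, which themselves spread over more than 2 log2 units. The difference was 4.10 ± 0.82 (adjusted p = 0.0192), a 17.1-fold difference and the largest rise among named genes called; it missed the threshold without GFP+ replicate 1 (adjusted p = 0.0575) and without GFP+ replicate 2 (0.252).

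Cxcr5 was at 9.14, 8.62 and 9.08 in GFP+ Tfh against 5.87, 5.78 and 5.19 in CXCR5+PD1- cells, a difference of 3.33 ± 0.36 (adjusted p = 0.000411). Against the label, Cxcr5 RNA in CXCR5+PD1- cells did not lie above that in CXCR5-PD1- cells, whose mean was 5.71 against 5.61 (difference -0.10 ± 0.24, adjusted p = 0.9975, groups overlapping). Both means lay below the array medians of 6.34 to 6.45, where values of this processing are compressed. Pdcd1, which encodes PD-1, was at 9.48, 9.33 and 8.26 against 6.95, 7.31 and 6.9985, a difference of 1.94 ± 0.28 (adjusted p = 0.00238; 0.0683 without GFP+ replicate 2). Bcl6 was at 10.0018, 9.73 and 10.12 against 8.29, 8.11 and 8.10 (1.78 ± 0.19, adjusted p = 0.000411). Cd4 had means of 10.40 and 9.73 and was not called (0.67 ± 0.19, adjusted p = 0.0980).

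**Figure D1:**
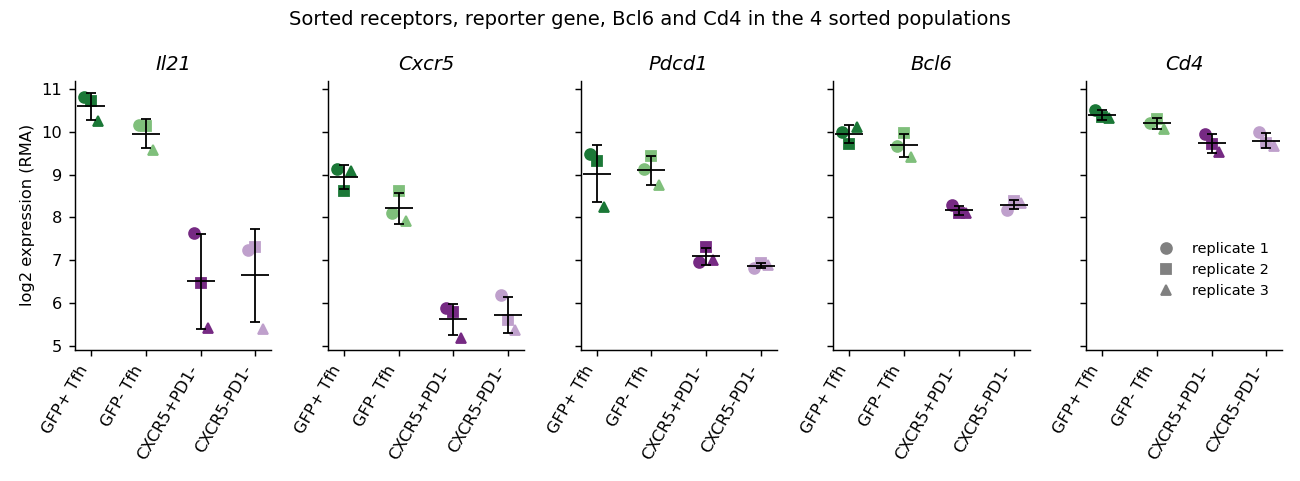
Levels of Il21, Cxcr5, Pdcd1, Bcl6 and Cd4 (log2 intensity, vertical axis) on the 12 arrays by sorted group; points are arrays, black dashes group means and whiskers SD (n = 3). The GFP+ Tfh arrays lay above the CXCR5+PD1- arrays for each of these genes, and Cxcr5 had means of 5.61 in CXCR5+PD1- and 5.71 in CXCR5-PD1- cells.

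Promoters of 3 genes are shown because Il21 and Il4 are the cytokine genes that rose and Il7r is a cytokine receptor gene that fell. Each sequence is the 250 bases before the transcription start in RefSeq, build GRCm38.p6, written 5′ to 3′ on the gene's strand, which is the minus strand for each. Il21 lies at chr3:37232637-37232886, Il4 at chr11:53618666-53618915 (the farther upstream of 2 starts) and Il7r at chr15:9529877-9530126. Capitals mark GGAAAA on either strand, a core bound by the calcium-activated NFAT factors, and the palindrome TTCNNNGAA, a core bound by STAT factors.
Il21: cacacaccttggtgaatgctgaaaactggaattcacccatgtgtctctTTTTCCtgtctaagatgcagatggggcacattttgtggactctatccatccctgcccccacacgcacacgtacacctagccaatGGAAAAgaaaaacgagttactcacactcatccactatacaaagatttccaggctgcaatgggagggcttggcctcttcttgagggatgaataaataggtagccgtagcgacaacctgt
Il4: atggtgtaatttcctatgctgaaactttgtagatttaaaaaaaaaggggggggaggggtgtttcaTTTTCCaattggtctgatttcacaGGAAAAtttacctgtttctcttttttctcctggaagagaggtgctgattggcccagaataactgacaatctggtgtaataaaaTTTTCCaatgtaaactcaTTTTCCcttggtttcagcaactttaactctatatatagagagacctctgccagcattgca
Il7r: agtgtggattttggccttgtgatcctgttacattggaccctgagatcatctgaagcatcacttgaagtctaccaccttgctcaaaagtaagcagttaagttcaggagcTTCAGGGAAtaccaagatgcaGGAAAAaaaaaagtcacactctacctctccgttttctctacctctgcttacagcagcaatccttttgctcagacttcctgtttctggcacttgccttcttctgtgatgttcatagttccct
The Il21 window held 2 NFAT cores and the Il4 window 4, with no STAT palindrome in either. The Il7r window held 1 of each, and no match overlapped another. Over 32851 RefSeq promoter windows of this length, 20.4% held the NFAT core and 7.02% the STAT palindrome. Of the 12 genes with the largest rises 10 had a window, and 4 of these held the NFAT core and 1 the STAT palindrome; of the 12 with the largest falls 11 had one, and 2 held the NFAT core and 1 the STAT palindrome. A match is a description of letters and no evidence that a factor was bound.

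The rise in Il4 differed between arrays. Il4 was at 9.90, 10.36 and 6.84 in GFP+ Tfh against 6.21, 6.34 and 6.41 in CXCR5+PD1- cells. GFP+ replicate 3 thus stood close to the CXCR5+PD1- arrays, and GFP+ replicates 1 and 2 stood high. GFP+ replicate 3 is also the GFP+ array that reads as female, so sex and replicate cannot be told apart. GFP- Tfh had an Il4 mean of 10.10, with replicate 3 at 9.69. The difference between GFP+ Tfh and CXCR5+PD1- cells was 2.72 ± 0.60 (adjusted p = 0.0339). It missed the threshold without GFP+ replicate 1 (0.128), without GFP+ replicate 2 (0.362) and without any of the CXCR5+PD1- arrays (0.0567 to 0.0643). Of the 16 cytokine genes tested, 2 rose (Il21 and Il4) and 0 fell, with a median difference of 0.03. The calls were 12.5% of the list, against 2.94% of all genes tested, and include Il21, the gene that the reporter reads. Il10 (0.01 ± 0.34), Ifng (-0.37 ± 0.52) and Il17a (0.67 ± 0.34) were not called.

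Of 30 genes of the Tfh program tested, 16 rose and 1 fell, with a median difference of 1.19. That is 56.7% of the list, against 2.94% of all genes tested. Cxcr5, the gene of a sorted receptor, counts among the 16, and the list was written with earlier results of these data known. Without GFP+ replicate 1 the number that rose was 10, and without GFP+ replicate 2 it was 6. Sh2d1a, the adaptor SAP through which SLAM receptors support contact with B cells, was at 10.76, 10.66 and 10.23 in GFP+ Tfh against 8.75, 8.82 and 9.16 in CXCR5+PD1- cells (1.64 ± 0.19, adjusted p = 0.000618). Tnfsf8, the ligand CD30L, was at 11.07, 10.88 and 11.12 against 9.25, 8.92 and 8.83 (2.02 ± 0.28, adjusted p = 0.00163). The groups lay well apart in both genes. The 1 gene that fell was Lef1, a transcription factor of naive cells and early Tfh cells, named after its values were seen: it was at 8.89, 9.16 and 9.67 against 10.47, 10.87 and 10.85 (-1.49 ± 0.20, adjusted p = 0.00139).

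Transcription factors of Tfh and other T cells rose in 10 of 30 genes tested and fell in 1 (median 0.39). Calls made up 36.7% of the list, against 2.94% of all genes tested. Tox and Tox2 encode related nuclear factors of the Tfh program. Tox was at 11.46, 11.52 and 10.81 in GFP+ Tfh against 9.88, 9.83 and 9.70 in CXCR5+PD1- cells (1.46 ± 0.18, adjusted p = 0.000799), and Tox2 rose by 1.87 ± 0.24 (adjusted p = 0.00105). Hif1a, the oxygen-sensing factor, was at 11.91, 11.75 and 11.75 against 10.27, 10.57 and 10.49 (1.36 ± 0.16, adjusted p = 0.000618). Nfatc1, a calcium-activated factor, rose by 1.41 ± 0.20 (adjusted p = 0.0023; 0.0849 without GFP+ replicate 2). The gene that fell, Bach2, a repressor that holds T cells in a resting state, was named after its values were seen (-1.47 ± 0.26, adjusted p = 0.00938; 0.154 without GFP+ replicate 2).

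In the list of CD28 family and coinhibitory receptors 6 of 13 rose and 1 fell (median 0.74). Without GFP+ replicate 2, however, 0 rose, and without GFP+ replicate 1, 3 rose. The list also holds Nt5e, which encodes an enzyme and no such receptor and counts among the 6. The calls were 53.8% of the list, against 2.94% of all genes tested, and the rises include Pdcd1, the gene of a sorted receptor. Tigit, an inhibitory receptor for nectin-like ligands, was at 10.34, 10.76 and 10.48 in GFP+ Tfh against 8.29, 8.65 and 7.57 in CXCR5+PD1- cells (2.36 ± 0.45, adjusted p = 0.0156; 0.247 without GFP+ replicate 2). Icos, the costimulator that Tfh cells need, was at 11.81, 12.05 and 11.92 against 10.47, 10.92 and 10.69 (1.23 ± 0.20, adjusted p = 0.00472; 0.137 without GFP+ replicate 2). Groups lay apart for both genes, with close GFP+ values. Ctla4 rose by 1.06 ± 0.22 (adjusted p = 0.0236) but was not called without GFP+ replicate 1 (0.061) or GFP+ replicate 2 (0.319). Nt5e, the ectoenzyme CD73 that makes adenosine, rose by 1.90 ± 0.35 (adjusted p = 0.0124), also not called without GFP+ replicate 1 (0.0539) or GFP+ replicate 2 (0.144). The gene that fell was Cd226, an activating receptor that shares ligands with TIGIT, named after its values were seen (-1.51 ± 0.36, adjusted p = 0.0483); it was not called when any array except CXCR5+PD1- replicate 3 was left out (0.0779 to 0.422).

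Of 8 SLAM receptors and adaptors tested 3 rose and 0 fell (37.5% called, against 2.94% of all genes tested). Besides Sh2d1a these were Fyn, the kinase that SAP recruits (0.95 ± 0.18, adjusted p = 0.012; 0.235 without GFP+ replicate 2), and Slamf6 (1.04 ± 0.25, adjusted p = 0.0463), which lost its call without each array other than CXCR5+PD1- replicate 1 (0.0511 to 0.233). The receptors Slamf1 (-0.28 ± 0.29), Cd84 (0.03 ± 0.21), Ly9 (-0.37 ± 0.21), Slamf7 (0.22 ± 0.34) and Cd48 (-1.03 ± 0.44) were not called, and the groups overlapped in each. In the TNF superfamily 1 of 17 genes rose, Tnfsf8 (5.88%, against 2.94% of all genes tested). Cd40lg, the ligand by which T cells license B cells, had a difference of 0.41 ± 0.26 (adjusted p = 0.5995) although its arrays did not overlap.

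**Figure D2:**
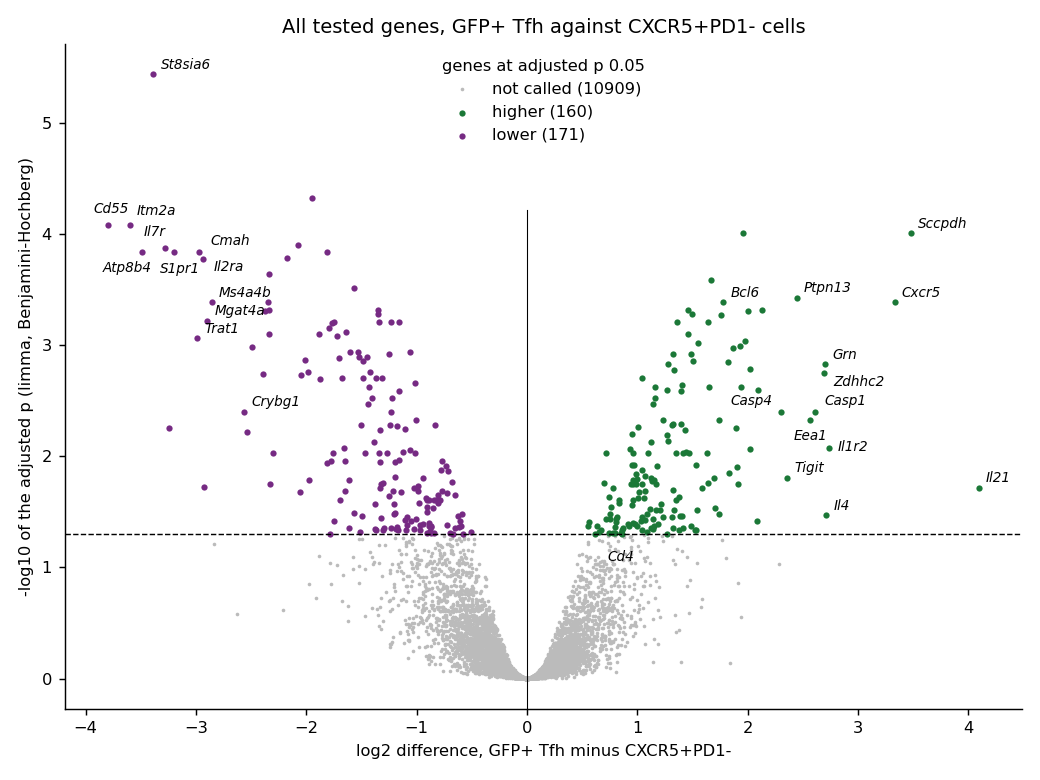
Each point is 1 of the 11240 genes tested; the horizontal axis gives the log2 difference, GFP+ Tfh minus CXCR5+PD1-, and the vertical axis -log10 of limma's adjusted p, with the dashed line at 0.05. The 160 higher and 171 lower calls are coloured; St8sia6 has the smallest adjusted p and Il21 the largest difference.

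Other genes with large rises lay outside the usual Tfh lists. Sccpdh, an oxidoreductase-like protein, was at 9.71, 8.71 and 9.42 in GFP+ Tfh against 5.73, 5.79 and 5.87 in CXCR5+PD1- cells, an 11.2-fold difference (3.48 ± 0.29, adjusted p = 9.86e-05). Ptpn13, a tyrosine phosphatase, was at 9.94, 9.22 and 8.93 against 6.81, 7.05 and 6.89 (2.45 ± 0.26, adjusted p = 0.000373). Zdhhc2, a palmitoyltransferase, was at 8.25, 8.06 and 9.29 against 6.22, 5.31 and 5.99 (2.69 ± 0.37, adjusted p = 0.0018). For these genes the lowest GFP+ array lay more than 1 log2 unit above the highest CXCR5+PD1- array. Eea1, a tether of early endosomes, rose by 2.56 ± 0.41 (adjusted p = 0.00472; 0.137 without GFP+ replicate 2).

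Of 8 genes for inflammatory caspases and IL-1 family receptors, 3 rose and 1 fell (median 0.05). Thus 50% were called, against 2.94% of all genes tested. Casp1, the protease that matures IL-1 beta and IL-18, was at 9.50, 8.65 and 9.42 in GFP+ Tfh against 6.87, 6.59 and 6.27 in CXCR5+PD1- cells (2.61 ± 0.41, adjusted p = 0.00398). Casp4, which senses lipopolysaccharide, was at 10.43, 10.03 and 9.59 against 7.97, 7.88 and 7.29 (2.30 ± 0.36, adjusted p = 0.00398). Il1r2, the decoy receptor for IL-1, was at 9.61, 9.15 and 8.42 against 6.82, 5.94 and 6.21 (2.74 ± 0.47, adjusted p = 0.00836). Groups lay apart in each, yet without GFP+ replicate 2 none of these was called (Casp1 0.0515, Casp4 0.0898, Il1r2 0.15). Il18r1, the IL-18 receptor chain, fell (-2.06 ± 0.42, adjusted p = 0.0209), with no call without GFP+ replicate 2 (0.15) or CXCR5+PD1- replicate 2 (0.051). Pycard (-0.01 ± 0.19) and Gsdmd (0.04 ± 0.17), which act with these caspases, were not called.

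Lysosome genes rose in 3 of 18 tested and fell in 2 (median 0.18, 27.8% called against 2.94% of all genes tested). Grn, the progranulin precursor, was at 10.58, 10.49 and 9.77 in GFP+ Tfh against 8.20, 7.35 and 7.17 in CXCR5+PD1- cells (2.70 ± 0.37, adjusted p = 0.00148; 0.0532 without GFP+ replicate 2). Lamp2, a lysosomal membrane protein, was at 9.11, 8.87 and 8.92 against 7.53, 7.82 and 7.58 (1.32 ± 0.17, adjusted p = 0.00121). Both genes separated the groups by over 1 log2 unit. The protease Ctsb rose by 1.24 ± 0.28 (adjusted p = 0.0349), whereas the cholesterol carrier Npc2 (-1.22 ± 0.18, adjusted p = 0.00298) and the protease Ctsc (-1.20 ± 0.23, adjusted p = 0.0154) fell. Without GFP+ replicate 2 these 3 were not called (0.152, 0.105 and 0.221), Ctsb also without GFP+ replicate 1 (0.117), CXCR5+PD1- replicate 2 (0.0726) or CXCR5+PD1- replicate 3 (0.071), and Ctsc also without GFP+ replicate 3 (0.0557).

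Genes of naive and recirculating T cells fell in 14 of 19 tested and rose in 0, with a median difference of -1.49. That is 73.7% of the list, against 2.94% of all genes tested. The list was written with earlier results of these data known and holds some of the largest falls here, such as Cd55. Cd55, the complement decay-accelerating protein, was at 6.03, 4.63 and 5.43 in GFP+ Tfh against 8.86, 9.20 and 9.42 in CXCR5+PD1- cells, a 13.9-fold difference (-3.79 ± 0.30, adjusted p = 8.35e-05). S1pr1, the receptor by which T cells leave lymphoid tissue, was at 7.94, 7.55 and 8.33 against 10.83, 11.17 and 11.41 (-3.20 ± 0.30, adjusted p = 0.000144). Ccr7, which guides cells to the T cell zone, was at 8.29, 8.61 and 8.87 against 10.63, 11.03 and 11.24 (-2.38 ± 0.27, adjusted p = 0.000494). No array of one group came near the other for these genes. Sidt1 fell by 2.34 ± 0.23 (adjusted p = 0.000228). Klf2, the factor that activates S1pr1, had a difference of -0.67 ± 0.18 and was not called (adjusted p = 0.0758).

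Of 15 chemokine and egress receptor genes, 3 fell (S1pr1, Ccr7 and Gpr18) and 1 rose (Cxcr5), with a median of -0.11. The calls were 26.7% of the list, against 2.94% of all genes tested, and Cxcr5 is the gene of a sorted receptor. Gpr18 was at 8.25, 7.71 and 8.34 in GFP+ Tfh against 9.85, 10.17 and 10.42 in CXCR5+PD1- cells (-2.04 ± 0.29, adjusted p = 0.00187; 0.0724 without GFP+ replicate 2). Cxcr4, the germinal centre dark zone receptor (0.42 ± 0.14), and Ccr6, which binds a chemokine of the follicle-associated epithelium (0.74 ± 0.29), were not called, nor were Gpr183 (-0.48 ± 0.19) and S1pr2 (0.16 ± 0.14), which position cells within the follicle.

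Receptors for cytokines of the common gamma chain family, with their kinases and targets, fell in 5 of 16 genes tested and rose in 0 (median -0.41). Of this list 31.2% was called, against 2.94% of all genes tested. Il7r was at 8.21, 8.25 and 6.86 in GFP+ Tfh against 10.81, 11.34 and 11.00 in CXCR5+PD1- cells (-3.28 ± 0.29, adjusted p = 0.000135). Il2ra, the high-affinity IL-2 receptor chain CD25, was at 5.84, 6.53 and 5.13 against 8.90, 8.81 and 8.60 (-2.94 ± 0.28, adjusted p = 0.000167). Il4ra was at 8.65, 7.81 and 8.54 against 9.97, 10.56 and 10.52 (-2.02 ± 0.27, adjusted p = 0.00136; 0.0532 without GFP+ replicate 2). All of the GFP+ arrays were below all CXCR5+PD1- arrays in these genes. Jak1 (-0.59 ± 0.13, adjusted p = 0.0332) and the survival gene Bcl2 (-1.05 ± 0.24, adjusted p = 0.0385) fell by less. Jak1 lost its call without GFP+ replicates 2 or 3 or CXCR5+PD1- replicates 2 or 3 (0.0676 to 0.247), and Bcl2 without each array other than GFP+ replicate 1 (0.0583 to 0.43). Il2rb had a difference of 0.69 ± 0.21 and was not called (adjusted p = 0.1241).

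Integrin and adhesion genes rose in 3 of 14 tested and fell in 2 (median -0.54, 35.7% called against 2.94% of all genes tested). Without GFP+ replicate 2 the numbers that rose and fell were 1 and 1. Itga6, a laminin-binding integrin chain, was at 7.79, 7.13 and 7.66 in GFP+ Tfh against 9.49, 9.57 and 9.75 in CXCR5+PD1- cells (-2.08 ± 0.18, adjusted p = 0.000127). Cd44, the hyaluronan receptor of activated T cells, was at 9.33, 9.21 and 9.38 against 7.75, 7.70 and 8.07 (1.46 ± 0.16, adjusted p = 0.000478). Both differences were several times the spread of the arrays. Selplg, the selectin ligand PSGL-1, fell (-1.33 ± 0.24, adjusted p = 0.0112), and the integrin chains Itgav (1.01 ± 0.17, adjusted p = 0.0055) and Itgal (1.09 ± 0.24, adjusted p = 0.0332) rose. Without GFP+ replicate 2 these were not called (Selplg 0.0898, Itgav 0.155, Itgal 0.341), nor was Itgal without GFP+ replicate 1 (0.0919), CXCR5+PD1- replicate 2 (0.0596) or CXCR5+PD1- replicate 3 (0.0676).

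**Figure D3:**
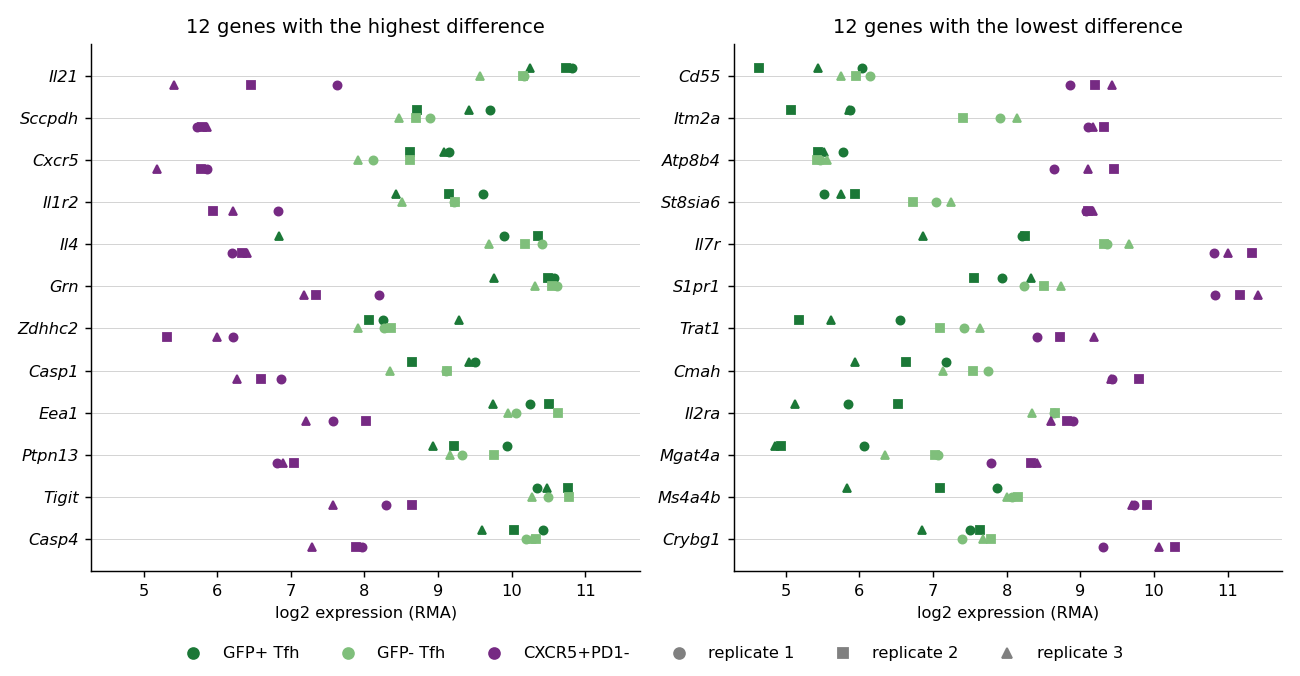
Log2 levels (horizontal axis) on the GFP+ Tfh, GFP- Tfh and CXCR5+PD1- arrays, 3 per group, of the 12 genes with the largest rises and the 12 with the largest falls among the named genes called; each point is an array, with its shape giving the replicate. The GFP+ arrays of Il4 reach down to 6.84, close to the highest CXCR5+PD1- value of 6.41, while those of Sccpdh start at 8.71 against 5.87.

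Genes acting near the T cell receptor moved both ways, with 5 of 33 tested lower and 3 higher (median 0.09). Calls came to 24.2% of the list, against 2.94% of all genes tested. Rasgrp2, which activates the adhesion GTPase RAP1, was at 6.69, 7.24 and 7.68 in GFP+ Tfh against 9.29, 9.76 and 9.61 in CXCR5+PD1- cells (-2.35 ± 0.25, adjusted p = 0.000411). Rasa3, which turns off RAP1 and RAS, was at 7.22, 6.54 and 6.40 against 8.68, 9.30 and 9.19 (-2.34 ± 0.29, adjusted p = 0.000799). An activator and an inactivator of the same GTPase thus fell by similar amounts. The kinase Txk fell by 2.49 ± 0.32 (adjusted p = 0.00103) and Dgka, which consumes diacylglycerol, by 0.83 ± 0.14 (adjusted p = 0.00524; 0.0988 without GFP+ replicate 2). The fifth gene that fell, Pag1, and Ptpn22 and Sla, which rose beside Fyn, restrain receptor signalling and were named after their values were seen: Pag1 -0.91 ± 0.22, Ptpn22 1.04 ± 0.20 and Sla 1.38 ± 0.29 (adjusted p = 0.0486, 0.0132 and 0.023). Without GFP+ replicate 2 none of these 3 nor Fyn was called (0.219 to 0.362), Sla was not called without GFP+ replicate 3 (0.0709), and Pag1 lost its call without each array other than CXCR5+PD1- replicate 1 (0.0624 to 0.362). Trat1, an adaptor of the receptor complex, was at 6.55, 5.18 and 5.62 against 8.41, 8.72 and 9.19 (-2.99 ± 0.37, adjusted p = 0.000862).

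Of 27 immediate early genes, 2 fell and 1 rose (median 0.02, 11.1% called against 2.94% of all genes tested). Nr4a1, a reporter of recent receptor signals, was at 8.87, 8.35 and 8.78 in GFP+ Tfh against 9.85, 9.76 and 9.94 in CXCR5+PD1- cells (-1.18 ± 0.19, adjusted p = 0.00538; 0.155 without GFP+ replicate 2). Myc, the growth regulator, was at 8.92, 6.72 and 6.19 against 9.55, 9.43 and 9.82 (-2.32 ± 0.46, adjusted p = 0.0177), with GFP+ replicate 1 close to the CXCR5+PD1- arrays. Egr2, a factor induced by receptor signals, rose by 0.91 ± 0.21 (adjusted p = 0.0404). Myc was not called without GFP+ replicate 2 (0.214) or GFP+ replicate 3 (0.0707), and Egr2 not without any of the GFP+ arrays (0.0673 to 0.334) or CXCR5+PD1- replicate 2 (0.0668). Fos (0.01 ± 0.22) and Egr1 (0.11 ± 0.24) overlapped between the groups.

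The largest falls included 3 enzymes of glycan synthesis, picked from the 12 largest falls and not a tested list. St8sia6, a sialyltransferase, was at 5.51, 5.94 and 5.74 in GFP+ Tfh against 9.08, 9.10 and 9.17 in CXCR5+PD1- cells (-3.39 ± 0.18), with the smallest adjusted p of all genes (3.65e-06). Cmah, which hydroxylates sialic acid, was at 7.17, 6.63 and 5.94 against 9.43, 9.79 and 9.42 (-2.97 ± 0.27, adjusted p = 0.000144), and Mgat4a, which branches N-glycans, at 6.06, 4.93 and 4.85 against 7.79, 8.33 and 8.41 (-2.90 ± 0.34, adjusted p = 0.000602). Groups lay more than 1.5 log2 units apart in each. Of the 13 genes in the list of sialyltransferases and sialidases, however, 1 fell (St8sia6) and 1 rose (median -0.08). Calls were 15.4% of that list, against 2.94% of all genes tested. The gene that rose was the sialidase Neu3 (0.75 ± 0.17, adjusted p = 0.0328). Neu3 lost its call without each array other than CXCR5+PD1- replicate 1 (0.0662 to 0.155). Ms4a4b, a membrane protein of T cells, was at 7.87, 7.09 and 5.83 against 9.74, 9.91 and 9.70 (-2.86 ± 0.31, adjusted p = 0.000411). Atp8b4, a lipid flippase, fell by 3.49 ± 0.32 (adjusted p = 0.000144), and Crybg1 by 2.56 ± 0.40 (adjusted p = 0.00398; 0.0668 without GFP+ replicate 2); the mean of the 2 probe sets of Crybg1 fell by 1.31.

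Of 15 genes of Th1, Th2 and Th17 cells, 2 fell and 0 rose (13.3% called, against 2.94% of all genes tested; median -0.03): Il18r1 and Ifngr2, a chain of the interferon gamma receptor, which was at 8.07, 7.35 and 7.85 in GFP+ Tfh against 9.63, 10.53 and 10.71 in CXCR5+PD1- cells (-2.54 ± 0.42, adjusted p = 0.00607). Neither was called without GFP+ replicate 2 (0.155 for Ifngr2, 0.15 for Il18r1), nor Il18r1 without CXCR5+PD1- replicate 2 (0.051). The lineage factors Tbx21 (-0.03 ± 0.22) and Gata3 (0.10 ± 0.26) overlapped between groups. Of 15 genes of regulatory T cells, 2 rose (Ikzf2 and Ctla4) and 1 fell (Il2ra), 20% of the list against 2.94% of all genes tested. Ikzf2, the factor Helios, was at 11.16, 11.05 and 11.05 against 9.53, 9.17 and 8.50 (2.02 ± 0.35, adjusted p = 0.00854; 0.15 without GFP+ replicate 2), and Ctla4 was not called without GFP+ replicate 1 (0.061) or GFP+ replicate 2 (0.319). Foxp3, the defining factor, had a difference of -0.65 ± 0.22 and was not called (adjusted p = 0.1732). Of 15 genes of TGF-beta receptors and SMADs, 1 fell and 0 rose (6.67% called, against 2.94% of all genes tested). The gene that fell, Smad7, an inhibitor of TGF-beta signals, was at 6.86, 6.79 and 7.02 against 8.37, 8.47 and 9.16 (-1.78 ± 0.32, adjusted p = 0.0111, and 0.198 without GFP+ replicate 2).

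In lists for growth and metabolism, and in the interferon and Tfh restraint lists, 0 to 1 gene each was called, 0% to 7.69% of a list against 2.94% of all genes tested. Of 26 cell cycle genes 1 rose (3.85%, median 0.05), the replication helicase subunit Mcm6 (1.19 ± 0.27, adjusted p = 0.0404), and the proliferation marker Mki67 was not called (1.17 ± 0.37). Of 19 genes of glycolysis and nutrient uptake and 25 of endoplasmic reticulum stress and secretion 0 were called in limma. Of 19 genes of sterol and fatty acid synthesis the desaturase gene Scd2 rose (1.53 ± 0.37, adjusted p = 0.0465), and of 32 genes of the respiratory chain Ndufb3 rose (0.96 ± 0.20, adjusted p = 0.0246). Of 23 interferon response genes Gbp7 fell (-1.62 ± 0.31, adjusted p = 0.0164). Of 13 genes that restrain Tfh cells, 1 fell, Foxp1 (-0.60 ± 0.14, adjusted p = 0.0427). None of these 5 was called without GFP+ replicate 2 (0.201 to 0.438). Further arrays ended a call when left out: GFP+ replicate 1 for Mcm6 (0.127), Scd2 (0.163) and Ndufb3 (0.058); GFP+ replicate 3 for Gbp7 (0.0538); CXCR5+PD1- replicates 2 and 3 for Mcm6 (0.0585 and 0.0557) and Scd2 (0.0957 and 0.0896); and each array for Foxp1 (0.0533 to 0.438).

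**Figure D4:**
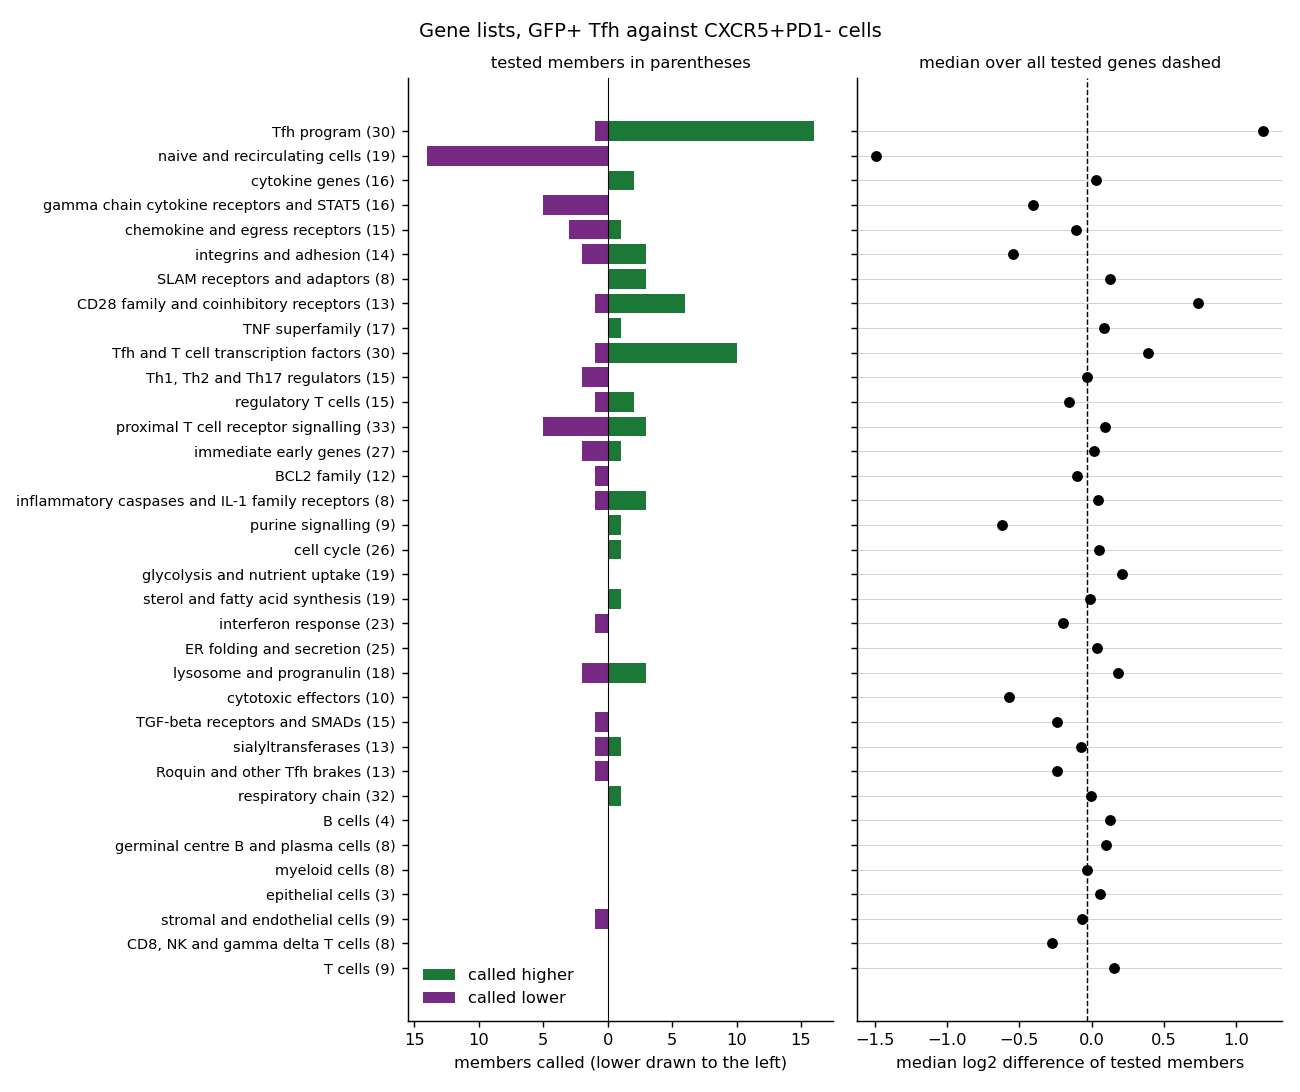
Left, number of members called higher (bars to the right) and lower (to the left) in GFP+ Tfh against CXCR5+PD1- cells for each gene list, with the members tested in parentheses; right, the median log2 difference of the tested members, with a dashed line at the median of all genes tested (-0.03). The Tfh program (16 higher, 1 lower of 30, median 1.19) and the naive and recirculating list (0 higher, 14 lower of 19, median -1.49) lie farthest apart. Both lists were written with earlier results of these data known.

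Markers of other cell types were called about as often as all genes. Of 40 tested entries of 6 lists, covering myeloid, stromal and epithelial cells, B cells, germinal centre B cells with plasma cells, and CD8, natural killer and gamma delta T cells, 0 were higher and 1 was lower in GFP+ Tfh, a share near the 2.94% of all genes tested. That gene, Vim, is also expressed by T cells (-1.22 ± 0.25, adjusted p = 0.0203; 0.243 without GFP+ replicate 2 and 0.0612 without GFP+ replicate 3). The myeloid genes Lyz2, at 7.33, 7.64 and 6.27 on the GFP+ arrays against 5.44, 5.92 and 5.45 (1.48 ± 0.46, adjusted p = 0.129), and Lyz1, at 7.95, 7.77 and 6.63 against 6.44, 6.39 and 6.37 (1.05 ± 0.34, adjusted p = 0.146), encode lysozymes. Both were above all CXCR5+PD1- arrays without being called; Lyz1 was called without GFP+ replicate 3, and each was called in 3 alternatives. On the array 60 of the 103 list entries lay below the array median on all 6 arrays. Relative to the array median, the B cell list's median ran from -0.81 to -0.56 on the GFP+ arrays and from -0.96 to -0.90 on those of CXCR5+PD1- cells, and the list for CD8, natural killer and gamma delta T cells was -0.66 to -0.54 against -0.24 to 0.01. The groups did not overlap for these 2 lists and overlapped for the other 4. The part of these shifts in the results above was not tested. Epcam (means 5.10 and 5.04), H2-Aa (5.69 and 5.59) and H2-Ab1 (6.49 and 6.20), whose products the gate left out, were too low to be tested, and H2-Eb1 did not differ beyond its spread (6.63 and 6.71). Of 9 T cell genes 0 were called.

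The choice of PD1- cells as baseline was examined in the same model. Between CXCR5+PD1- and CXCR5-PD1- cells 0 of the 11240 genes were called in limma (0%), with 404 (3.59%) at an unadjusted p under 0.05 and a smallest adjusted p of 0.502. This contrast equals the difference between GFP+ Tfh over CXCR5-PD1- and GFP+ Tfh over CXCR5+PD1-, so for no gene was the comparison shown to depend on the baseline. For these Tfh genes the differences were -0.14 ± 0.54 for Il21, 0.21 ± 0.19 for Pdcd1 and -0.13 ± 0.13 for Bcl6.

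GFP- Tfh cells were compared with GFP+ Tfh in the same way. The contrasts share the GFP+ arrays. Of the 331 genes called, the GFP- Tfh mean lay between those of GFP+ Tfh and CXCR5+PD1- cells in 265, beyond GFP+ Tfh in 65 and beyond CXCR5+PD1- cells in 1. GFP+ and GFP- Tfh differed in 3 genes (0.0267%), all lower in GFP+ Tfh and all among the 331, with 461 (4.1%) at an unadjusted p under 0.05. Il2ra was at 8.65, 8.65 and 8.35 in GFP- Tfh, close to CXCR5+PD1- cells and far above GFP+ Tfh (GFP+ minus GFP- -2.72, adjusted p = 0.00788). Itm2a, a membrane protein of T cells, had levels of 5.87, 5.08 and 5.86 (GFP+ Tfh), 7.91, 7.41 and 8.13 (GFP- Tfh) and 9.10, 9.32 and 9.17 (CXCR5+PD1-). It fell by 3.60 ± 0.28 against CXCR5+PD1- cells (adjusted p = 8.35e-05) and by 2.22 against GFP- Tfh (adjusted p = 0.0255), a stepwise order with no overlap.

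Adamts6, a secreted metalloprotease, had levels of 6.09, 5.95 and 5.71 (GFP+ Tfh), 7.15, 7.19 and 7.10 (GFP- Tfh) and 7.40, 7.14 and 7.23 (CXCR5+PD1-). It fell by 1.34 ± 0.16 against CXCR5+PD1- cells (adjusted p = 0.000618) and by 1.23 against GFP- Tfh (adjusted p = 0.0255), the latter 2 groups overlapping. The count of genes that differ between the Tfh gates was 0 without GFP+ replicate 1 or GFP- replicate 1, and 1 without GFP+ replicate 2, GFP+ replicate 3 or GFP- replicate 3. For Cd55, GFP- Tfh (6.14, 5.95 and 5.75) lay near GFP+ Tfh, and for Il21 (10.17, 10.15 and 9.57) they lay below all GFP+ arrays with a difference that was not called (0.63 ± 0.85). Whether the comparison differs between female and male arrays cannot be settled, since each group holds 1 female array, always replicate 3. For Il4 the difference on the female arrays minus that on the male arrays was -3.42, a value that rests on 1 female array per group.

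**Figure D5:**
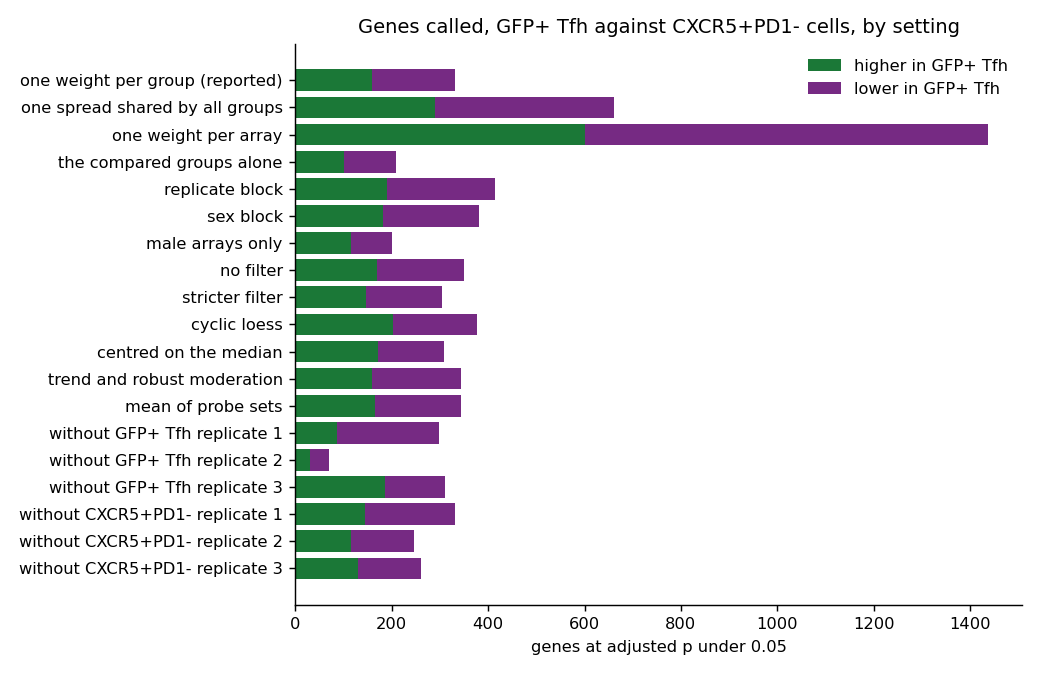
Number of genes called higher and lower in GFP+ Tfh against CXCR5+PD1- cells (horizontal axis, stacked bars from 0) for the reported model and each alternative. Counts run from 70 without GFP+ replicate 2 to 1437 with 1 weight per array, and the reported model gives 331.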

How the data were processed

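RNA of 12 sorted samples (100 ng total RNA each, integrity number at least 9.2 per the labels) was measured on Affymetrix mouse gene arrays. The authors deposited 1 table of log2 values for 34760 probe sets; per the submitters' processing notes, the oligo package and its RMA method were used. RMA corrects background and equalises the arrays' distributions, which compresses low signals and hides a change common to most genes: 50 genes called had a lower group under the array median, and their differences can be understated. Precision is limited by 3 arrays per group. A genome build for the files is not given in the labels.

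Groups and replicate numbers follow the sample titles, and 0 columns were left without a sample. Symbols come from the platform annotation, updated through RefSeq (GRCm38.p6): 21640 probe sets had 1 symbol (21553 matched by gene identifier, 87 kept an older symbol), 1321 had more and 11799 had none here. Of 19937 genes, 954 had more than 1 probe set, and the brightest was used. Testing required a level above the array's median (percentile 50) on 3 or more arrays: 11240 genes passed and 8697 did not.

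One linear model of all 12 arrays and 4 group means was fitted (limma 3.58.1 in R 4.3.3, lmFit, arrayWeights with 1 weight per group, eBayes). The weights were 0.390 for GFP+ Tfh, 1.20 for GFP- Tfh, 1.64 for CXCR5+PD1- and 1.30 for CXCR5-PD1- cells, with 8 residual and 12.0 total degrees of freedom. Calls use Benjamini-Hochberg adjustment at 0.05. The code was tested on simulated data. Lists are described by counts and medians, with no test.

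The members, lists, tests and weights were chosen with earlier results of these data known. Genes named are Il21, Cxcr5, Pdcd1, Bcl6, Cd4 and the genes gated out, the 12 largest rises and 12 largest falls among genes called whose arrays do not overlap, up to 5 members of each list by smallest p (every member of short lists), and up to 5 genes each way in the other 2 contrasts; not all are printed. Predicted genes, small RNA and receptor segments were skipped. Alternatives altered weights, filter, scaling, moderation, block, probe set rule and the arrays used. For each contrast, every array of its own groups was also left out in turn. Same-numbered arrays did not deviate together in this comparison (correlations 0.0233, 0.0837 and -0.0195, none over 0.1), so the number entered only as an alternative. They did between CXCR5+PD1- and CXCR5-PD1- cells (0.231, 0.21 and 0.353), where the block also gave 0 calls; between GFP+ and GFP- Tfh the correlations were 0.253, 0.0411 and 0.283.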

Additional observations from a re-analysis of the deposited data

Results flagged for a closer look

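Of 7008 probe sets outside the gene-level comparison that passed the same filter, because they had no gene symbol or several, 8 (0.114%) were called between GFP+ Tfh and CXCR5+PD1- cells in limma, 2 higher and 6 lower. 3 of these had no symbol and 5 had several, so they name no gene here. The share called is below the 2.94% of named genes, but these probe sets were fitted and adjusted on their own, so the cutoffs differ. The 8 are listed because the comparison of named genes does not use them.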

How the results depend on the processing

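Of 78 named genes called in GFP+ Tfh over CXCR5+PD1-, 31 kept the call in every alternative and 47 lost it in at least 1. Of the named genes not called, 56 were called in at least 1 alternative. None reversed. The count of 331 became 662 with 1 spread shared by all groups and 1437 with 1 weight per array. It was 208 with the compared groups alone and 200 with the male arrays only. Leaving out 1 array of the compared groups gave 70 (without GFP+ replicate 2) to 331. With the replicate number as a block it was 415, of which 301 were among the 331; the block ended the call of Foxp1 (adjusted p = 0.0599) and called Cd4 (0.0312), Klf2 (0.0235) and Lyz2 (0.033), and what the numbers stand for is not labelled. The other alternatives gave 304 to 381. The count of 3 between GFP+ and GFP- Tfh became 5 with 1 shared spread, 95 with 1 weight per array, 0 with the compared groups alone and 0 with the male arrays only, 2 with the replicate block, and 0 to 3 without 1 array. The count of 0 between CXCR5+PD1- and CXCR5-PD1- cells was 0 in each alternative. Higher calls made up 48.3% of the 331, 53.6% with cyclic loess, 55.7% with median centring and 29.2% to 60.3% without 1 array. Among printed genes, the compared groups alone ended the calls of Il4, Ndufb3, Jak1, Fyn, Slamf6, Ctla4, Il18r1, Myc, Egr2, Mcm6, Scd2, Ctsc, Ctsb, Neu3, Foxp1, Sla and Pag1 (adjusted p = 0.0615 to 0.137). The male arrays only ended those of Crybg1, Ndufb3, Jak1, Bcl2, Selplg, Itgal, Slamf6, Icos, Ifngr2, Dgka, Myc, Egr2, Mcm6, Gbp7, Npc2, Ctsc, Ctsb, Neu3, Foxp1, Vim, Ptpn22, Sla and Pag1 (adjusted p = 0.0505 to 0.285). Median centring ended those of Jak1, Foxp1, Cd226 and Pag1, and cyclic loess those of Scd2 and Pag1. The causes were not tested. Signals below the array median limit what low genes can show.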

Other observations

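In every alternative 62 genes were called in GFP+ Tfh over CXCR5+PD1- (25 higher, 37 lower), and 30 of them (13 higher, 17 lower) belong to no list and were not among the largest differences; they are named here after their values were seen. Those that rose included the Notch target Hey1 (1.98 ± 0.25), the neurotrophin receptor Ntrk3 (2.003 ± 0.22) and the metalloprotease inhibitor Timp2 (1.76 ± 0.20). The transcription factor Cebpa (1.49 ± 0.19), known from myeloid cells, and the activation marker Cd83 (1.34 ± 0.18) rose too. Hey1, Ntrk3, Timp2 and Cebpa are not usual T cell markers. Their means were 8.96, 8.34, 9.66 and 7.54 in GFP+ Tfh and 8.58, 7.97, 9.27 and 7.33 in GFP- Tfh. In CXCR5+PD1- cells they were 6.98, 6.33, 7.90 and 6.05. None of these genes was called between the Tfh gates, so the rises are not particular to GFP+ Tfh. Of the 8 myeloid list genes tested 0 were called, though Lyz1 (1.05 ± 0.34) and Lyz2 (1.48 ± 0.46) lay higher on all GFP+ arrays; their part in the Cebpa difference was not tested. Tbc1d4, which controls glucose transporter traffic, rose by 1.67 ± 0.17, Slc9a9, an endosomal proton exchanger, by 1.96 ± 0.16, and Stx11, a syntaxin of granule release, by 1.497 ± 0.17.

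Among those that fell, Ppp3ca, a catalytic subunit of calcineurin, had a difference of -1.95 ± 0.14, while Nfatc1, whose product calcineurin activates, rose. Txnip, a glucose-responsive inhibitor of thioredoxin, fell by 1.75 ± 0.21, and Adgre5, the adhesion receptor CD97 that binds CD55, fell by 1.79 ± 0.21, as Cd55 itself did. Iqgap2, a cytoskeletal scaffold (-1.77 ± 0.21), and Macf1, a crosslinker of actin and microtubules (-1.06 ± 0.14), also fell. The relation among these genes was not tested.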
